A study of Mus musculus with 9 samples.

Results

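The breakdown of the branched-chain amino acids leucine, isoleucine and valine was followed in rat liver through 10 genes, chosen by name from the 19686 genes of the count table. All 10 were found, the mutase Mut under its newer symbol Mmut, and all 10 passed the filter on low counts in each comparison. Liver RNA of 9 male Wistar rats was sequenced, 3 from each of 3 groups. The control group drank purified water and was given saline by gavage. The model group drank 15% fructose in water for 8 weeks, a diet that induces metabolic syndrome, and was given saline by gavage. The third group drank the same fructose solution and was given by gavage 1.8 g/kg of the 50% methanol extract (HME) of Danggui-Shaoyao-San (DSS), a Chinese herbal formula. The labels call these rats DSS, and the study's text says that HME was the preparation taken to transcriptomics, so they are called the HME group here. All groups were fasted for 12 h before the livers were taken. Samples were whole liver of separate rats, so a lower share of a cell type and less RNA per cell cannot be told apart.

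Breakdown starts when a transaminase removes the amino group and leaves a branched-chain keto acid. The branched-chain keto acid dehydrogenase (BCKDH) complex of mitochondria then takes off the carboxyl group, which commits the carbon skeleton to oxidation. A kinase switches this complex off by adding phosphate to its E1 alpha subunit, and a phosphatase switches it on again. Separate arms for leucine, isoleucine and valine follow, and the last of these steps feed acetyl-CoA, ketone bodies or succinyl-CoA. Liver is known for a high capacity of the BCKDH complex and a low capacity of the transaminase. RNA levels were measured here, and neither phosphorylation nor enzyme activity was.

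Total counts per library ranged from 14345819 to 26837227, and the 10 genes together took 0.104% to 0.123% of them. Levels are given as CPM, the counts of a gene scaled to the library's total with TMM factors over the 9 libraries, in the order of replicates 1, 2 and 3. All 6 hepatocyte markers were present, with summed levels of 111342 to 139034 CPM for control rats, 132758 to 178133 CPM for model rats and 136980 to 169644 CPM for HME rats. Alb made up most of these sums, and the markers Cps1 and Cyp2e1 were lower in all model rats than in the rats of both other groups. Their log2 fold changes were -0.76 and -0.63 for model against control (edgeR FDR = 0.123 and 0.117) and 0.68 and 1.06 for HME against model (edgeR FDR = 0.384 and 0.0738). For model against control, Alb, Apoa1, Ttr and Serpina1 had log2 fold changes of 0.34, 0.09, 0.39 and 0.17, all with overlap. For HME against model theirs were -0.08, 0.73, -0.07 and 0.01, again with overlap. So the hepatocyte markers did not move together. Ivd and Mccc2, like Cps1 and Cyp2e1, had the model rats lowest. The part of such a shift in any difference given here was not tested. The summed levels of the 7 markers of leukocytes and Kupffer cells overlapped between the groups, at 220.4 to 502, 154 to 353 and 229 to 302 CPM. The 4 endothelial markers in the table overlapped too, at 124 to 208, 80.9 to 241 and 126 to 179 CPM.

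No member passed the call of the study's 2 thresholds, an FDR of at most 0.01 with a log2 fold change of 0.5 or more either way, in any of the 3 comparisons by edgeR's quasi-likelihood test. Of all genes tested, 0.0801% passed it for model against control, 0.136% for HME against model and 1.48% for HME against control. The largest difference among the members was that of Bckdk, the kinase, which was higher in all 3 model rats than in the control rats and lower in all 3 HME rats than in either other group. The highest HME rat, at 23.9 CPM, lay just below the lowest control rat, at 24.1 CPM. The transaminase Bcat2 was higher and the core subunit Dbt lower in HME rats than in control rats, both at an FDR under 0.05 by edgeR. For the other members the 3 group means lay within 1.62-fold of each other, and most of their rats overlapped between groups.

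**Figure D1:**
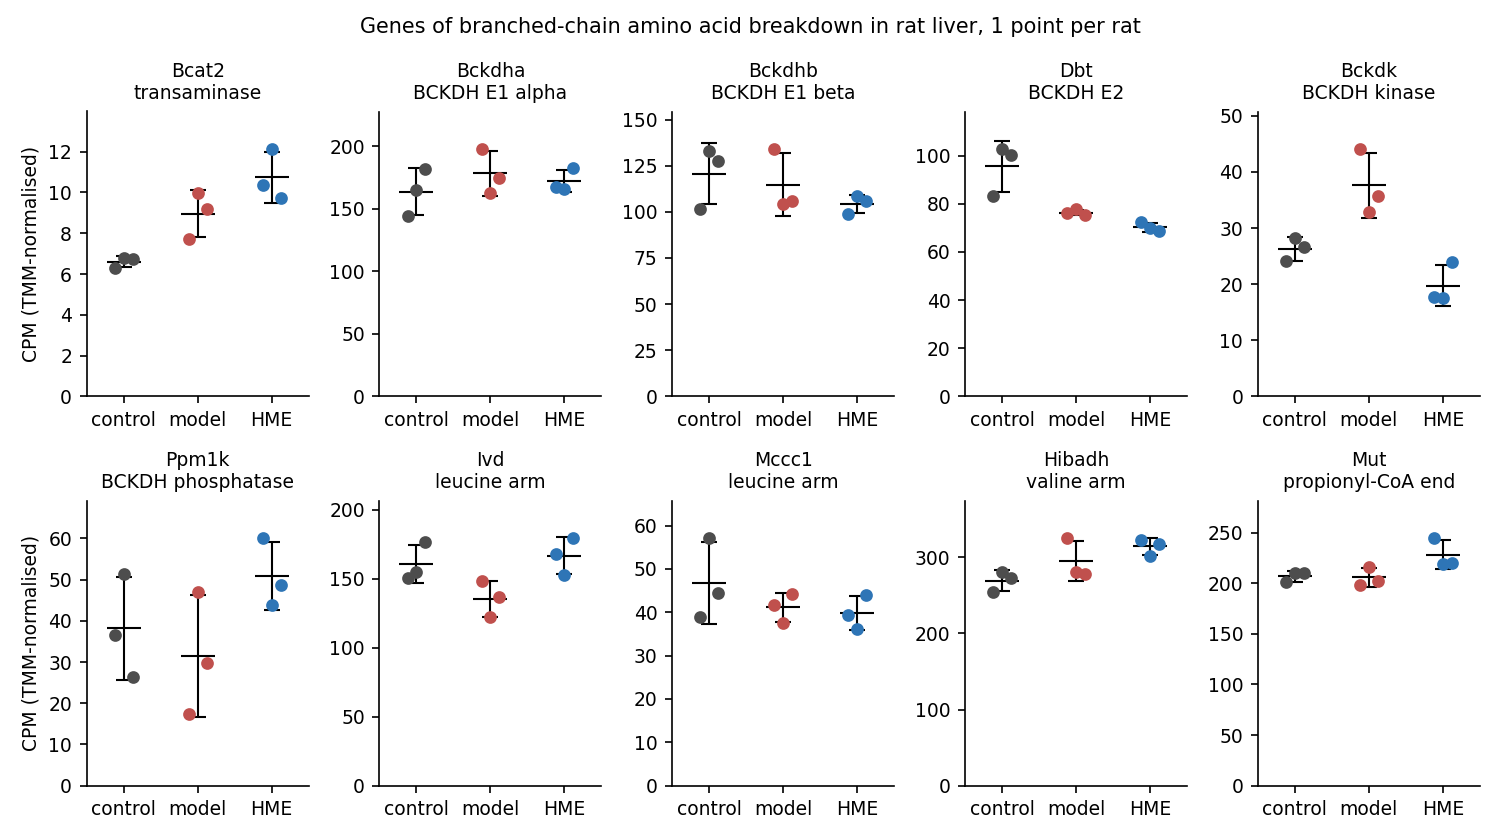
Level of each of the 10 genes (y axis, TMM-normalised CPM, starting at 0) in the control, model and HME groups, with 1 point per rat, the mean as a bar and the SD as whiskers (n = 3). Bckdk runs from 32.9 to 44.2 CPM in the model group and from 17.5 to 23.9 CPM in the HME group, while the Mut and Bckdha points of the 3 groups lie close together.

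The members spanned a wide range of levels. Per kilobase of the longest mouse transcript, used in place of the rat lengths, the mean over 9 rats was highest for Hibadh at 161 CPM per kb. Bckdha followed at 90.2 and Bckdhb at 76.7 CPM per kb, and their ranges over the rats overlapped, from 76.1 to 104 and from 66.7 to 90.9 CPM per kb. Mut at 58.1 CPM per kb, Ivd at 42.1, Dbt at 24.5 and Mccc1 at 17.4 were intermediate. Bckdk at 8.20, Ppm1k at 7.23 and Bcat2 at 4.22 CPM per kb were the lowest, and the ranges of Bckdk and Ppm1k overlapped. Thus on this scale both E1 subunits stood well above the E2 subunit, and the 2 regulators and the transaminase were at the bottom of the order. Without division by length, the control means were 164 CPM for Bckdha, 121 for Bckdhb and 95.6 for Dbt. Ivd was at 161 CPM and Mut at 207 CPM on that scale. The size of the gap between E1 and E2, and the place of Ivd and Mut, thus depended on the mouse lengths.

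The first step was represented by Bcat2, the mitochondrial branched-chain aminotransferase, which is known mainly from tissues outside the liver. The control rats had 6.29, 6.81 and 6.73 CPM, the model rats 7.71, 9.97 and 9.20 CPM, and the HME rats 10.4, 12.1 and 9.72 CPM. Every rat on fructose was above every control rat, and the model and HME groups overlapped. In the HME group the level was 1.62-fold that of the control group, a log2 fold change of 0.70 ± 0.15 (SE, n = 3 per group, edgeR FDR = 0.0273), whereas DESeq2 gave an FDR of 0.00662, which passes the call. Against the control group the model group was 0.43 ± 0.179 higher on the log2 scale (edgeR FDR = 0.343), and the HME group was 0.27 above the model group (edgeR FDR = 0.804). Between 101 and 225 reads per library fell on Bcat2. At the mean count of each group, counting alone gave an error of 8.98% (control), 7.87% (model) and 7.05% (HME). The CV between rats was 4.20%, 12.8% and 11.7%, so that of the control rats lay below the counting error. The single muscle marker in the table, of 4 listed, summed to at most 0.358 CPM in any rat, and the single fat marker, of 3 listed, to at most 0.0517 CPM. The other listed markers of muscle and fat were not analysed here.

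The BCKDH complex itself was represented by 3 subunits. Bckdha, the E1 alpha subunit that carries the regulatory phosphate, had 144, 165 and 182 CPM in the control rats, 198, 162 and 175 CPM in the model rats and 168, 166 and 183 CPM in the HME rats. The rats of all 3 groups overlapped, and the log2 fold changes were 0.12 for model against control (95% interval from -0.22 to 0.47), -0.05 for HME against model (from -0.36 to 0.27) and 0.07 for HME against control (from -0.20 to 0.34). Bckdhb, the E1 beta subunit, had 121 ± 16.7 CPM (control), 115 ± 16.9 CPM (model) and 104 ± 5.06 CPM (HME) (mean ± SD, n = 3), again with overlap. Its log2 fold change between the HME and control groups was -0.22, with an interval from -0.50 to 0.07.

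Dbt, the E2 subunit that forms the core of the complex and transfers the acyl group to CoA, stood apart from the E1 subunits. The control rats had 83.4, 103 and 100.5 CPM, the model rats 76.1, 77.7 and 75.3 CPM, and the HME rats 72.4, 70.0 and 68.6 CPM. The 3 groups did not overlap, with the control group highest and the HME group lowest. The highest HME rat, at 72.4 CPM, lay just below the lowest model rat, at 75.3 CPM. The CV was 1.57% among model rats and 2.71% among HME rats. Both lay below the counting error, which was 2.67% and 2.75%. For HME against control the log2 fold change was -0.45 ± 0.111 (edgeR FDR = 0.0438, DESeq2 FDR = 0.0198), a size under the study's minimum of 0.5. The model group was 0.33 below the control group on the log2 scale (edgeR FDR = 0.336), and the HME group was 0.11 below the model group (edgeR FDR = 0.866). Within each library the log2 ratio of Dbt to Bckdha, which scaling cannot move, was -0.78 ± 0.0892 for the control rats, -1.22 ± 0.158 for the model rats and -1.29 ± 0.107 for the HME rats. The lowest control rat, at -0.85, lay above the highest fructose-fed rat, at -1.06. For Bckdhb the same log2 ratio was -0.44 ± 0.114, -0.64 ± 0.0807 and -0.72 ± 0.0936 (mean ± SD, n = 3). These ratios were computed over genes already picked, so they are a description without a test.

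The kinase and the phosphatase of the complex gave the widest spread among the members. Bckdk, the kinase, had 24.1, 28.3 and 26.6 CPM in the control rats, 44.2, 32.9 and 35.8 CPM in the model rats and 17.8, 17.5 and 23.9 CPM in the HME rats. No rat of one group lay within the range of another, with the model group highest and the HME group lowest. The gap between the highest HME rat and the lowest control rat was smaller than the counting error, which was 5.19% for HME and 4.51% for control. Bckdk was at 0.526-fold in HME rats against model rats, a log2 fold change of -0.93 ± 0.184 (n = 3 per group). This difference ranked 110th of 12502 genes by p, with an unadjusted edgeR p of 0.000947 and an FDR of 0.108, which missed the call, whereas DESeq2 gave an FDR of 0.00249, which passed it. With all 9 libraries in 1 edgeR fit the FDR was 0.0359, and with a replicate block it was 0.254. Without model replicate 1, the rat with the highest level, the log2 fold change was -0.79 (edgeR FDR = 0.172). Over all fits that left out 1 rat it was -1.09 to -0.79 (edgeR FDR = 0.113 to 0.430). DESeq2 was the 1 alternative of 14 in which the call was passed. The model group was 1.43-fold the control group, a log2 fold change of 0.52 ± 0.159 (edgeR FDR = 0.217), and the HME group was 0.42 ± 0.151 below the control group on the log2 scale (edgeR FDR = 0.128). The higher Bckdk of model against control and the lower Bckdk of HME against model rest on the same 3 model rats and are not independent. The summed level of 3 markers of proliferating cells also did not overlap between the HME rats, at 0.653 to 3.57 CPM, and the model rats, at 4.71 to 11.0 CPM, with the control rats at 2.39 to 5.49 CPM, and the part of such cells in the Bckdk difference was not tested.

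Ppm1k, the mitochondrial phosphatase that removes the phosphate from E1 alpha, varied most from rat to rat. The control rats had 36.7, 51.3 and 26.4 CPM, the model rats 17.5, 47.1 and 29.9 CPM, and the HME rats 60.1, 43.9 and 48.7 CPM. The CV was 32.8% among control rats, 47.3% among model rats and 16.4% among HME rats, beside a counting error of 3.24% to 4.30%. All 3 groups overlapped, and the largest log2 fold change, 0.71 ± 0.32 for HME against model, had an interval from -0.03 to 1.44 (edgeR FDR = 0.649). That value rested on single rats, being 0.41 without model replicate 1 and 1.11 without model replicate 2. For model against control the log2 fold change of -0.29 (edgeR FDR = 0.776) became -0.01 without model replicate 1 and -0.69 without model replicate 2.

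Taking the kinase over the phosphatase in each rat, the log2 ratio was -0.61, -0.86 and 0.01 for control rats, 1.34, -0.52 and 0.26 for model rats and -1.76, -1.33 and -1.02 for HME rats. The means were -0.48 ± 0.447, 0.36 ± 0.931 and -1.37 ± 0.368 (SD, n = 3). All 3 HME rats lay below all other rats, while the control and model groups overlapped. As a ratio, the group means corresponded to 0.715, 1.28 and 0.387 units of Bckdk CPM per unit of Ppm1k CPM, with no correction for transcript length. The HME group's mean was 1.73 below that of the model group on the log2 scale, and the difference ranged from -2.17 to -1.24 when single rats were left out. No p is given for this ratio, because both genes were picked with results of these data known.

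**Figure D2:**
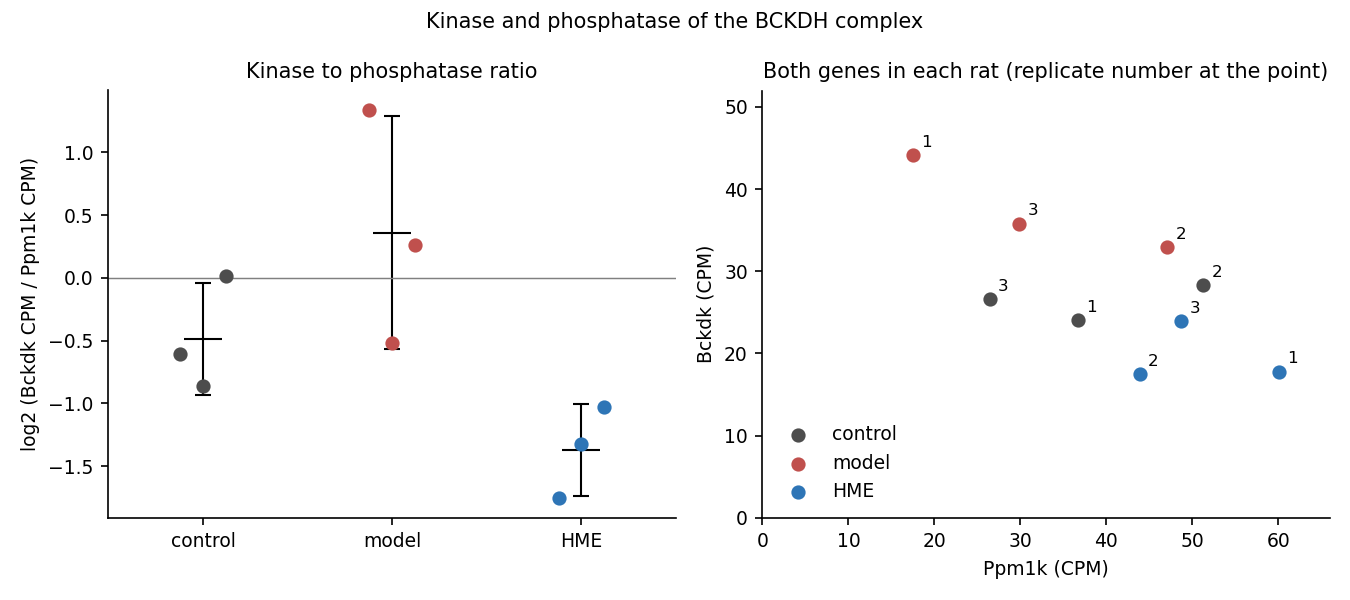
Left, log2 of Bckdk CPM over Ppm1k CPM (y axis) in each rat by group, with the mean as a bar and the SD as whiskers (n = 3). Right, Bckdk (y axis, CPM) against Ppm1k (x axis, CPM), 1 point per rat with its replicate number. The HME rats lie at the low end of the ratio, between -1.76 and -1.02, and the 3 model rats are spread from -0.52 to 1.34.

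Downstream of the complex, the leucine arm was represented by 2 members. Ivd, isovaleryl-CoA dehydrogenase, had 151, 155 and 176 CPM in the control rats, 148, 122 and 137 CPM in the model rats and 167, 152 and 179 CPM in the HME rats. The model rats lay below the rats of both other groups, which overlapped with each other. Neither difference passed the test, at a log2 fold change of -0.25 for model against control (edgeR FDR = 0.510) and 0.30 for HME against model (edgeR FDR = 0.653). Mccc1, the biotin-carrying alpha subunit of methylcrotonyl-CoA carboxylase, had 46.8 ± 9.41, 41.2 ± 3.36 and 39.8 ± 4.005 CPM in the control, model and HME groups (SD, n = 3), and all groups overlapped. Its log2 fold changes were -0.18, -0.04 and -0.23 in the 3 comparisons, with intervals that included 0.

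In the valine arm and at the common end of the pathway, the 3 groups lay close together. Hibadh, 3-hydroxyisobutyrate dehydrogenase of the valine arm, had 254, 281 and 273 CPM in the control rats, 326, 281 and 278 CPM in the model rats and 323, 302 and 318 CPM in the HME rats. The HME rats lay above the control rats at a log2 fold change of 0.22 (edgeR FDR = 0.249), with an interval from -0.02 to 0.46. Mut, methylmalonyl-CoA mutase, a cobalamin-dependent enzyme that makes succinyl-CoA, had 207 ± 5.20, 206 ± 9.36 and 228 ± 14.5 CPM in the control, model and HME groups (SD, n = 3). The HME rats, at 219 to 245 CPM, were above all other rats, which reached 216 CPM. That gap was smaller than the counting error, which was 1.53% for HME and 1.63% for model. The log2 fold changes were 0.16 against the model group (interval from -0.13 to 0.44, edgeR FDR = 0.838) and 0.14 against the control group (from -0.10 to 0.38, edgeR FDR = 0.471). With scaling by library size alone they were 0.15 and 0.0052. Between the model and control groups the Mut difference was -0.01, with an interval from -0.28 to 0.27.

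**Figure D3:**
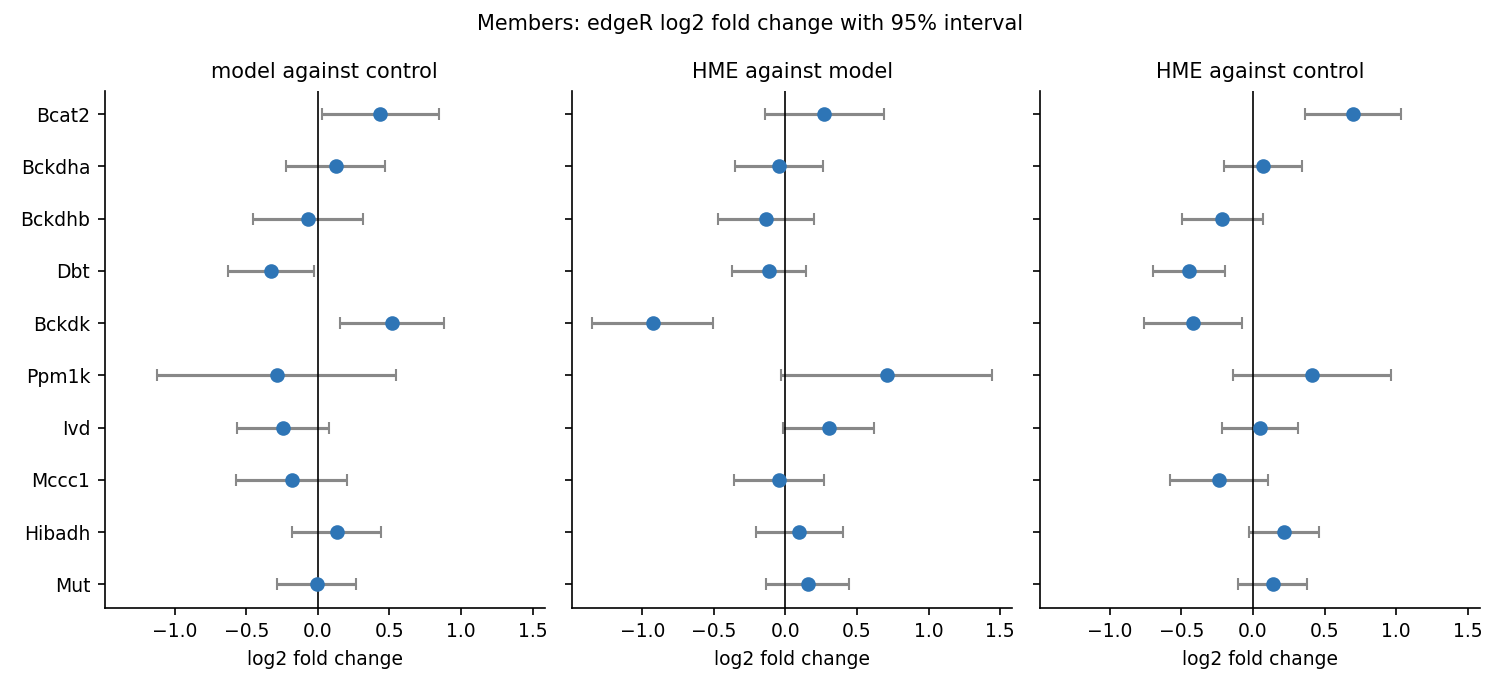
Log2 fold change of the 10 genes (x axis) in the 3 comparisons, with the point at the edgeR estimate and whiskers at its 95% interval. The interval of Bckdk lies below 0 for HME against model (-1.35 to -0.50), that of Bcat2 lies above 0 for HME against control (0.36 to 1.03), and the intervals of Ppm1k are the widest.

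Read over the list, the median absolute log2 fold change of the members was near or below that of all genes. In each comparison 2 or 3 of the 10 members in each direction did not overlap, beside the shares of all genes given with them. The members were chosen with earlier results of these data known, and the comparisons share rats. These small counts are therefore not read as a trait of the members. For the model group against the control group, the median absolute log2 fold change was 0.21 over the members and 0.22 over all genes tested. An unadjusted edgeR p under 0.05 was reached by 3 of 10 members, Bcat2 and Bckdk higher and Dbt lower, beside 13.2% of all genes, and an FDR of at most 0.05 by none, beside 0.601%. DESeq2 called none of the members, beside 2.05% of all genes. Between these groups 2 members did not overlap with the model group higher, beside 11.1% of genes, and 2 with it lower, beside 9.94%.

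For the HME group against the model group, the median absolute log2 fold change was 0.14 over the members and 0.18 over all genes. Bckdk was the 1 member with an unadjusted edgeR p under 0.05, beside 8.02% of all genes, and no member had an FDR of at most 0.05, beside 0.456%. DESeq2 called 1 member, Bckdk, and 1.18% of all genes. Without overlap, 2 members (Ivd and Mut) were higher, beside 6.17% of genes, and 2 (Bckdk and Dbt) were lower, beside 7.86%.

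For the HME group against the control group the medians were 0.23 and 0.24. An unadjusted edgeR p under 0.05 was reached by 3 members (Bcat2, Dbt and Bckdk) and by 24.3% of all genes, and an FDR of at most 0.05 by 2 members (Bcat2 and Dbt) and by 7.21% of all genes. DESeq2 called 1 member, Bcat2, and 6.09% of all genes. Without overlap, 3 members (Bcat2, Hibadh and Mut) were higher, beside 14.9% of genes, and 2 (Dbt and Bckdk) were lower, beside 15.2%.

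The rest of the pathway was read from 31 further genes of transport, the 3 arms, the propionyl-CoA end, biotin and cobalamin handling, electron transfer and regulation, of which 30 passed the filter (Bcat1 did not). None was called by edgeR for model against control or HME against model, and 1 was called for HME against control. That gene was Slc25a44, the carrier that brings branched-chain amino acids into mitochondria. It had 23.5, 21.9 and 17.8 CPM in the control rats, 7.20, 11.97 and 17.3 CPM in the model rats and 8.81, 11.5 and 10.5 CPM in the HME rats. All fructose-fed rats were below all control rats, and the model rats were widely spread. Slc25a44 fell to 0.486-fold in the HME group against the control group, a log2 fold change of -1.04 ± 0.154 (edgeR FDR = 0.00641). The call was lost in 5 of the 6 fits that left out 1 rat, in which the FDR was 0.0118 to 0.0273. For model against control the log2 fold change was -0.80 (edgeR FDR = 0.295).

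Slc43a1, a plasma membrane carrier of branched-chain amino acids, was lower in the model group than in the control group. Its levels were 30.9, 36.9 and 34.1 CPM in the control rats, 16.2, 17.1 and 12.1 CPM in the model rats and 31.0, 21.4 and 21.4 CPM in the HME rats. The model rats lay below all others. The HME group overlapped with the control group only through HME replicate 1, at 31.0 CPM beside a lowest control rat of 30.9 CPM. For HME against control the log2 fold change was -0.47 (edgeR FDR = 0.111). The log2 fold change of model against control was -1.17 ± 0.17 (edgeR FDR = 0.0299, DESeq2 FDR = 3.2e-06), and that of HME against model was 0.71 ± 0.209 (edgeR FDR = 0.384).

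Of the genes of electron transfer, Etfdh was higher in both fructose-fed groups. This gene, whose enzyme passes electrons from the acyl-CoA dehydrogenases to ubiquinone, had 196 ± 9.05, 298 ± 11.0 and 302 ± 14.9 CPM in the control, model and HME groups (SD, n = 3). The log2 fold change was 0.61 for model against control (edgeR FDR = 0.0908) and 0.62 for HME against control (edgeR FDR = 0.0130). Neither passed the call by edgeR, and both passed it by DESeq2 (FDR = 0.00079 and 4.09e-06). Both fructose-fed groups lay above all control rats and overlapped with each other.

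Acadsb and Aldh6a1 were highest in the HME group. Acadsb, the short/branched-chain acyl-CoA dehydrogenase of the isoleucine arm, had 74.4, 69.3 and 74.7 CPM in the control rats, 24.5, 66.9 and 69.3 CPM in the model rats and 109, 101 and 112 CPM in the HME rats. Against the control group the HME group was 0.56 ± 0.099 higher on the log2 scale (edgeR FDR = 0.0136, DESeq2 FDR = 0.00012). Its difference from the model group was 1.02 (edgeR FDR = 0.486) with model replicate 1, the lowest rat, and 0.67 (edgeR FDR = 0.0857) without it. Aldh6a1, the methylmalonate semialdehyde dehydrogenase of the valine arm, had 835 ± 10.4, 869 ± 12.3 and 1029.9 ± 6.10 CPM in the control, model and HME groups (SD, n = 3). The HME rats did not overlap with the control rats, at a log2 fold change of 0.30 (edgeR FDR = 0.130).

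Smaller differences without overlap were seen for other genes of the pathway, and none passed the test. Mccc2, the partner subunit of Mccc1, had log2 fold changes of -0.34 for model against control (edgeR FDR = 0.329) and 0.32 for HME against model (edgeR FDR = 0.574). The model group had the lowest mean of both Mccc2 and Ivd. Acat1, a mitochondrial thiolase, had 0.55 for model against control (edgeR FDR = 0.281) and 0.30 for HME against control (edgeR FDR = 0.133). Klf15, a transcription factor known to act on amino acid breakdown, had -0.41 for model against control (edgeR FDR = 0.315). Mmadhc of cobalamin handling had -0.31 and Btd, biotinidase, had 0.28 for HME against control (edgeR FDR = 0.127 and 0.149).

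Counted over these 30 genes, an unadjusted edgeR p under 0.05 was reached by 3 higher and 4 lower genes for model against control, 3 higher and 0 lower for HME against model, and 7 higher and 4 lower for HME against control, beside 13.2%, 8.02% and 24.3% of all genes in either direction. An FDR of at most 0.05 was reached by 1, 0 and 4 of them, beside 0.601%, 0.456% and 7.21% of all genes. The median log2 fold change was 0.02, 0.02 and 0.00 in the 3 comparisons, beside 0.00, 0.00 and -0.01 over all genes.

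**Figure D4:**
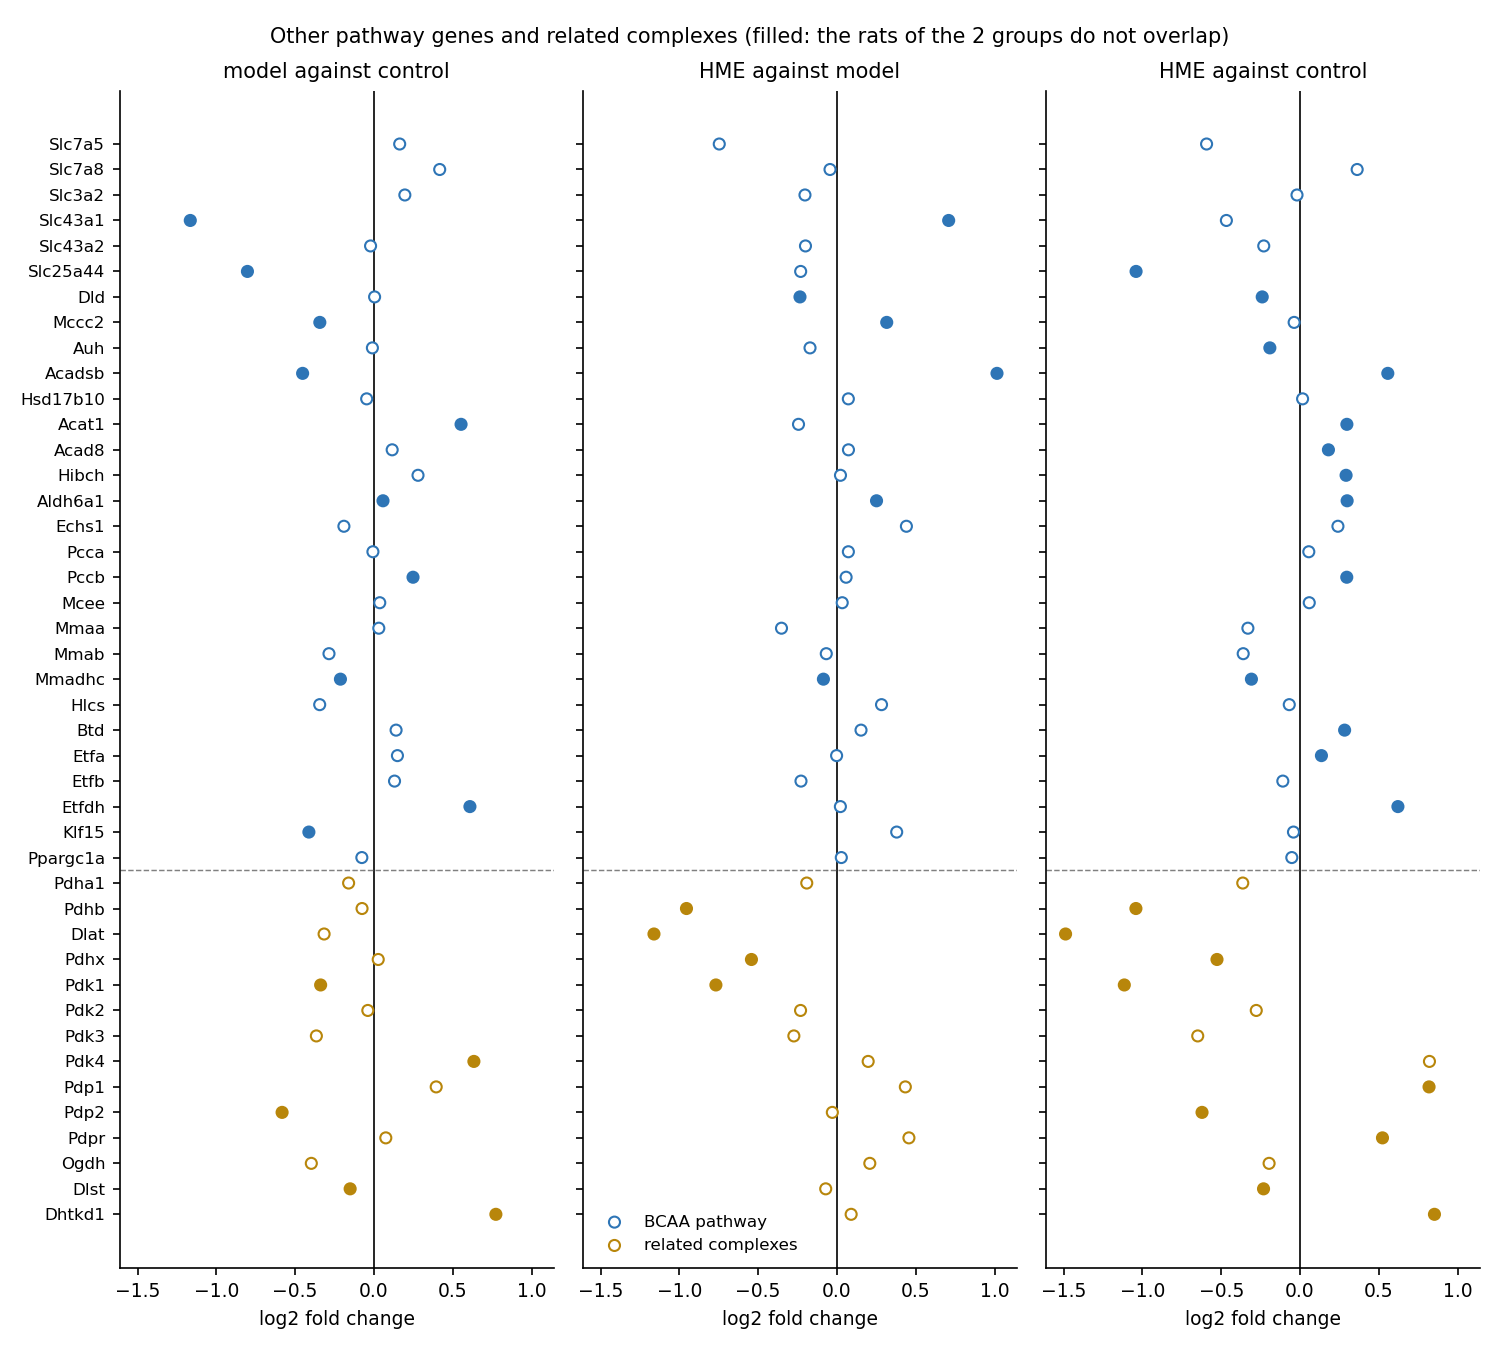
Log2 fold change (x axis, edgeR) of 29 other pathway genes (blue, above the dashed line) and of 14 genes of related dehydrogenase complexes (gold, below it) in the 3 comparisons. Filled points mark genes whose rats do not overlap between the 2 groups, and the widest shifts to the left for HME against control are those of Dlat (-1.49), Pdk1 (-1.11), Pdhb (-1.04) and Slc25a44 (-1.04).

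The BCKDH complex shares its build, and its E3 subunit Dld, with the pyruvate dehydrogenase (PDH) complex, so 14 genes of the related complexes were read in the same way. For HME against control 4 of the 14 were called by edgeR, 3 lower and 1 higher, beside 1.48% of all genes. Dlat, the E2 subunit of PDH and thus the counterpart of Dbt, had 50.3, 63.0 and 42.6 CPM in the control rats, 44.2, 34.5 and 46.4 CPM in the model rats and 17.2, 19.4 and 19.1 CPM in the HME rats. It fell to 0.357-fold, a log2 fold change of -1.49 ± 0.15 (edgeR FDR = 0.00106), with the HME rats far below all others. Pdhb, the E1 beta subunit of PDH and counterpart of Bckdhb, had 176 ± 12.1, 167 ± 35.4 and 85.9 ± 8.86 CPM in the control, model and HME groups (SD, n = 3) and fell by 1.04 on the log2 scale (edgeR FDR = 0.00195). Pdk1, a PDH kinase related to Bckdk, had 74.8 ± 3.79, 59.3 ± 10.8 and 34.6 ± 0.606 CPM and fell by 1.11 (edgeR FDR = 0.000467). Of the 14 genes, 10 had a lower and 4 a higher estimate for HME against control. The kinase Pdk4 was 0.82 higher with overlap (edgeR FDR = 0.0947, DESeq2 FDR = 0.00910). The subunit Pdhx was 0.53 lower without overlap (edgeR FDR = 0.0191, DESeq2 FDR = 0.00340). Pdha1, the E1 alpha subunit of PDH, and the kinase Pdk2 were 0.36 and 0.28 lower with overlap (edgeR FDR = 0.109 and 0.221). Dhtkd1, of the 2-oxoadipate dehydrogenase, rose by 0.85 in the HME group against the control group (edgeR FDR = 0.00631). The Dhtkd1 call was lost in 8 of 14 alternatives, among them all 6 fits that left out 1 rat, where the FDR reached 0.0229.

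Against the model group the same 3 genes were lower in the HME group without overlap, at log2 fold changes of -1.16 for Dlat (edgeR FDR = 0.0308), -0.95 for Pdhb (edgeR FDR = 0.0984) and -0.77 for Pdk1 (edgeR FDR = 0.117). None of the 3 passed the call by edgeR, and all 3 passed it by DESeq2 (FDR = 6.67e-07, 0.000634 and 0.00588). For model against control none of the 14 was called by edgeR, with log2 fold changes of 0.77 for Dhtkd1, 0.63 for the kinase Pdk4 and -0.58 for the phosphatase Pdp2 (edgeR FDR = 0.121, 0.130 and 0.303). DESeq2 gave Dhtkd1 an FDR of 0.00965, which passed the call. Dld had 171 ± 8.17, 171 ± 10.7 and 145 ± 3.49 CPM in the control, model and HME groups (SD, n = 3), and its log2 fold change for HME against control was -0.24 (edgeR FDR = 0.185). For the same comparison the BCKDH subunits had log2 fold changes of 0.07 for Bckdha, -0.22 for Bckdhb and -0.45 for Dbt. The difference between the PDH and BCKDH subunits was not tested.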

How the data were processed

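Liver RNA-seq of 9 rats was read from the table of raw counts per gene that the authors deposited. The labels name mouse as organism but Wistar as strain, and the gene identifiers are rat. Per the labels and the study's methods, reads were aligned to Rnor_6.0 with HISAT2 2.0.5 and counted by the authors on exons with HTSeq 0.6.1 without strand, so overlapping genes can share reads. A table of 127 assembled transcripts was not used.

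Each pair of groups was fitted with edgeR 4.0.16 in R 4.3.3 on the counts of its 6 libraries (filterByExpr, TMM, robust glmQLFit, two-sided glmQLFTest). FDR is Benjamini-Hochberg over all genes tested. A gene was called at an FDR of at most 0.01 and a log2 fold change of 0.5 or more either way. Intervals are 95% intervals from the fit's SE and degrees of freedom. DESeq2 1.42.0 was an alternative. The alternatives were other scalings, filters and thresholds, thinned counts, 1 fit of all libraries, a replicate block and leaving out each rat. A single-gene exact permutation test of 3 against 3 cannot go below p = 0.1 and was not used. Scripts were tested on simulated data.

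The members, gene lists and tests were chosen with earlier results of these data known. Besides the members, genes were named if p was under 0.05 without overlap, at most 8 pathway and 3 related genes a comparison. Aldh6a1 with the model group, Dld, and, in the HME group, Dhtkd1, Pdk4, Pdhx, Pdha1 and Pdk2 were named after their values were seen. The same holds for the Slc43a1 value of HME against control. Lengths came from mouse transcripts, since no rat reference was used here. One of the other pathway genes enters the counts but is not reported here by itself.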

Additional observations from a re-analysis of the deposited data

How the results depend on the processing

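The direction of the log2 fold changes of Bcat2, Dbt, Bckdk and Ppm1k in the 3 comparisons, and of Slc25a44 in both comparisons with the control group, was kept under every alternative run. Scaling by library size alone, which moved the median of all genes by -0.14 on the log2 scale for both comparisons with the control group, reversed Bckdha to -0.024 and Hibadh to -0.017 for model against control, and Bckdha to -0.064 and Ivd to -0.089 for HME against control. With single rats left out, the range was -0.045 to 0.0074 for Mut, -0.22 to 0.0024 for Bckdhb (both model against control), -0.12 to 0.023 for Mccc1 and -0.11 to 0.040 for Bckdha (both HME against model) and -0.011 to 0.16 for Bckdha (HME against control). Members called went from 0 to 1 with DESeq2 for HME against model (Bckdk) and for HME against control (Bcat2), and from 0 to 2 for HME against control at an FDR of at most 0.05 with no minimum fold change. Other pathway genes called for model against control went from 0 to 1 at that FDR with no minimum fold change, 1 with no filter and 2 with DESeq2. For HME against control they went from 1 to 4 at that FDR with no minimum fold change, 4 with no filter, 4 with DESeq2, 0 with all 9 libraries in 1 fit, 0 with the replicate block and 0 to 1 when single rats were left out. The cause of these changes was not tested.

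Replicate numbers are shared by the groups in name only: same-numbered rats had correlations of -0.26 to -0.01 between their deviations from the group means. With the replicate block, Slc25a44 had a log2 fold change of -1.04 for HME against control at an edgeR FDR of 0.0213, and the member calls were 0 in each comparison. Over all genes, edgeR called 10, 17 and 187 in the order of the report, the replicate block 0, 7 and 104, DESeq2 256, 147 and 769, no filter 71, 38 and 489, and 1 fit of all libraries 25, 20 and 113. Library size alone gave 8, 11 and 238, and leaving out single rats gave 0 to 10, 2 to 12 and 86 to 132. The calls of Dlat, Pdhb and Pdk1 for HME against control were kept in 14 of 14 alternatives, and that of Dhtkd1 was lost in 8 of them, all leave-outs included. With 3 rats per group, the spread between rats exceeded the counting error for most members.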
